A study of Mus musculus with 24 samples.

Results

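The cells described here are 546 CD8+ T cells from mouse Panc02 tumors that carried transcripts of both *Pdcd1* and *Havcr2* and none of *Tcf7*, the pattern of terminally exhausted CD8+ T cells. They were taken from 144994 barcodes in 16 single-cell RNA libraries. The barcodes were first limited to those with at least 1000 unique molecular identifiers (UMIs, each standing for 1 captured RNA molecule) and under 10% mitochondrial UMIs, which left 120912. A UMI of *Cd3d*, *Cd3e*, or *Cd3g* left 21906 T cells, and a UMI of *Cd8a* or *Cd8b1* with no UMI of *Cd4* left 13545 CD8+ T cells. At least 1 UMI of *Pdcd1* left 7459 cells and at least 1 of *Havcr2* left 1364. Cells with *Tcf7* were then removed (1334 left), and after them cells with over 1 *Ly6c2* UMI (1029), with 3 or more UMIs of *Gzmd*, *Gzme*, and *Gzmg* together (835), with *Mki67* (573), and with over 1 *C1qb* UMI (546). The cells were thus chosen by the UMIs of these genes, whose levels describe the gate and were not tested.

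Panc02 is a murine pancreatic cancer line, implanted under the skin of wild-type male C57BL/6 mice and harvested on day 38. The 8 groups were isotype control, anti-CTLA-4, anti-PD-1, both antibodies, PancVAX, PancVAX with anti-CTLA-4, PancVAX with anti-PD-1, and PancVAX with both. PancVAX is a vaccine of neoantigen peptides (50 µg of peptides by the labels and 50 µg of each by the methods, on days 12 and 19), which by the methods also held the adjuvant AddaVax and a STING agonist and was replaced by PBS in the other mice. The effect of the peptides and that of the adjuvants therefore cannot be told apart. Antibody doses were 100 µg each, started on day 12 for anti-PD-1 and given on days 15 and 22 for anti-CTLA-4. Tumors were pooled within a treatment, and each treatment had a whole tumor library, of all dissociated cells, and a Percoll library, of immune cells concentrated by density. Preparation and sequencing batch cannot be told apart. The 2 libraries of a treatment are called its pool here, and *P* values measure the spread between pools, which may be technical, or, where 1 pool is compared with 1 other, only the spread between libraries.

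The libraries held 5743–11979 barcodes and 77132398–176233225 UMIs each. The gate took 17–61 cells per library (median, 31.5) and 41–98 per pool. Of its 16-base cell barcodes, 81 also occurred in another library, 15 of them as a T cell and 0 as a second cell of the gate, beside 25109 such barcodes in all.

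CD8+ T cells that meet their antigen for weeks in a tumor or a chronic infection enter a state called exhaustion. A stem-like exhausted cell keeps the transcription factor TCF1, encoded by *Tcf7*, divides, and gives rise to terminally exhausted cells, which lose TCF1 and display several inhibitory receptors at once. PD-1 (*Pdcd1*), TIM-3 (*Havcr2*), LAG-3 (*Lag3*), TIGIT, and CTLA-4 are such receptors, TOX is the nuclear factor that fixes the state, and *Rgs16* encodes a regulator of G protein signaling that T cells induce on activation. Blocking antibodies to PD-1 act mainly through the stem-like cells, while terminally exhausted cells keep cytotoxic granules but respond poorly.

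The gate's limits cut through sparse counts. *Pdcd1* lies on chromosome 1 (94038305–94052553, mm10) and *Havcr2* on chromosome 11 (46454931–46481255). Of the 546 cells, 413 had exactly 1 *Havcr2* UMI and 121 exactly 1 *Pdcd1* UMI, and 87 (15.9%) had 1 of each. Just outside the gate, 2569 cells met every other limit but had no *Havcr2* UMI, 120 had no *Pdcd1* UMI, and 81 had 1 *Mki67* UMI. The cells just past the remaining limits numbered 29 with 2 *Ly6c2* UMIs, 7 with 3 UMIs of the 3 granzymes, 6 with 2 *C1qb* UMIs, and 4 with 1 *Tcf7* UMI. The gated cells held a median of 6545 UMIs, compared with 5141 in 145 stem-like cells (*Pdcd1* and *Tcf7*, no *Havcr2*), 3547.5 in 4728 effector cells (at least 2 *Ly6c2* UMIs and 1 of *Ccl5*), and 5355 in 8126 other CD8+ T cells.

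*Lag3*, *Tox*, and *Rgs16*, further markers of terminal exhaustion that the gate did not use, were found in most of the gated cells. A *Lag3* UMI was found in 86.8% of the gated cells, compared with 62.8% of stem-like, 18.1% of effector, and 58.6% of other CD8+ T cells, and with 2.2% of B cells, which should lack it (median depth, 2327 UMIs). For *Tox* the shares were 67.6%, 53.1%, 9.9%, and 44.4%, with 0.3% in B cells. For *Rgs16* they were 74.4%, 46.9%, 14.1%, and 44.7%, with 0.4% in B cells. After thinning every cell to 2000 UMIs, which left 526 gated, 133 stem-like, 4197 effector, 7342 other CD8+, and 2338 B cells, a *Lag3* UMI remained in 57.6%, 39.1%, 12.0%, 36.0%, and 0.642% of them in that order. *Tox* remained in 34.8%, 31.6%, 5.72%, 23.5%, and 0.171%, so that at equal depth the shares of the gated and the stem-like cells lay close together. *Rgs16* remained in 50.8%, 24.1%, 9.41%, 27.6%, and 0.214%. All 3 genes were found together in 266 of the gated cells (48.7%), and none of them in 17 (3.11%), whose median depth was 2869 UMIs.

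Markers of tumor cells and fibroblasts were concentrated in the deepest barcodes of the gate, and those of macrophages, neutrophils, NK cells, and endothelium were not. Erythroid markers were at 0 in all 8 pools. The 111 barcodes above 10000 UMIs (20.3% of the gate; the largest held 69081) carried 773 CPM (a gene's counts scaled to a common total) of the tumor and epithelial markers *Krt8*, *Krt18*, and *Epcam*, compared with 48.1 CPM in the 435 others. Fibroblast markers stood at 284 and 25.4 CPM, and the 10 inhibitory receptors and ectoenzymes at 804 and 1777 CPM. Macrophage markers were at 77.7 and 134 CPM and neutrophil markers at 3.65 and 189 CPM, with NK cell markers at 34.9 and 67.9 and endothelial markers at 6.26 and 10.1. The gate allowed at most 1 *C1qb* UMI per cell at any depth, which limited macrophage RNA in deep barcodes in advance. No doublet caller was run. The limits that the study itself set (200–3000 genes, 1000–10000 UMIs, and no hemoglobin UMI) leave these barcodes out, and results under those limits are given below where they bear on a call. Over cells of every depth, tumor and epithelial markers stood at 365 CPM in the gate, 502 in stem-like cells, and 489 in effector cells. Fibroblast markers stood at 138, 509, and 307 CPM in that order.

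The share of CD8+ T cells that fell in the gate was lower in every pool with PancVAX than in every pool without it. It was 6.54% with isotype control (63 of 963 cells; exact binomial 95% interval, 5.06%–8.29%), 5.78% with anti-CTLA-4 (84 of 1453), 8.38% with anti-PD-1 (98 of 1169), and 6.00% with both antibodies (93 of 1550). With PancVAX it was 2.81% (42 of 1497; 2.03%–3.77%), with anti-CTLA-4 added 2.36% (41 of 1737), with anti-PD-1 added 2.19% (64 of 2923), and with both added 2.71% (61 of 2253). The 2 sets of pools did not overlap. Their means were 2.52% ± 0.289 with PancVAX and 6.68% ± 1.18 without (SD, n = 4 pools each), 2.65-fold apart (exact two-sided permutation test, *P* = 0.0286, the smallest that 70 splits can give; 0.0857 after Benjamini-Hochberg adjustment over the 3 agents, which misses 0.05). The difference, -4.16 percentage points, was -3.99 in the whole tumor libraries alone and -4.26 in the Percoll libraries alone. Under the limits of the study the shares were 2.38% ± 0.360 and 6.90% ± 1.11 (-4.52, exact permutation *P* = 0.0286).

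**Figure D1:**
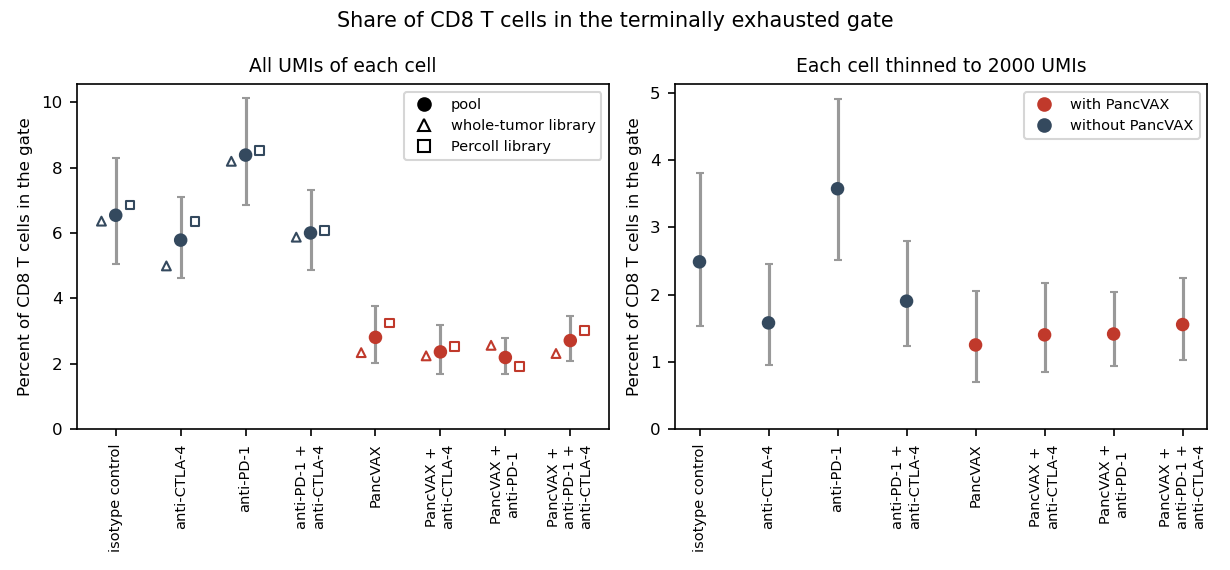
Share of CD8+ T cells in the terminally exhausted gate (percent, vertical axis) in each of the 8 pools (horizontal axis), on all UMIs at left, with marks for the whole tumor library, the Percoll library, and the pool, and with each cell thinned to 2000 UMIs at right, where bars are the exact binomial 95% interval of the pool in both panels. On all UMIs the 4 pools with PancVAX lie between 2.19% and 2.81% and the 4 without it between 5.78% and 8.38%, and after thinning the highest pool with PancVAX is at 1.55% and the lowest without it at 1.58%.

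The depth of the cells and the number of other CD8+ T cells moved with this gap. The median CD8+ T cell held 3790–3960 UMIs in the pools with PancVAX and 5026–6158.5 in those without. With every cell thinned to 2000 UMIs and the gate then applied anew, 189 cells met it. The limits on excluded genes loosen as UMIs are lost, so cells outside the original gate could enter, and these were not counted. On all UMIs, *Mki67* alone had kept out 242 cells and *Ly6c2* alone 164. After thinning, the shares were 1.41% ± 0.124 with PancVAX (1.25%, 1.40%, 1.41%, and 1.55%). Without it they were 2.39% ± 0.877 (2.49%, 1.58%, 3.57%, and 1.90% in the order isotype control, anti-CTLA-4, anti-PD-1, both). The sets of pools still did not overlap (1.70-fold; exact permutation *P* = 0.0286), but the highest with PancVAX and the lowest without it were 1.55% and 1.58%, and within either preparation the libraries overlapped. In whole tumor libraries the shares were 0.900%–1.78% with PancVAX and 1.68%–3.98% without, and in Percoll libraries 1.22%–2.08% and 1.51%–3.31%. In addition, the cells too shallow to thin made up 12.8% of CD8+ T cells with PancVAX and 5.28% without. Thinned to 1000 UMIs, the shares were 0.732% and 1.01% (exact permutation *P* = 0.0857).

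The effector gate held 95–208 cells per pool without PancVAX and 741–1280 with it, and it shares the denominator. Among the CD8+ T cells outside the effector gate, a denominator chosen after seeing the data, terminally exhausted cells made up 4.91% ± 0.718 with PancVAX and 7.76% ± 1.59 without (1.58-fold; exact permutation *P* = 0.0286, no overlap). Of all barcodes that passed the limits they were 0.340% and 0.578% (1.70-fold; exact permutation *P* = 0.0286). Both of these shares used the gate on all UMIs, so the gap in depth is still in them. Neither they nor the thinned shares handle depth and denominator together. No absolute cell numbers were measured, so that fewer terminally exhausted cells and more of other cells cannot be told apart.

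For each antibody the pools with and without it overlapped. The mean share was higher by 0.448 percentage points with anti-PD-1 (exact permutation within vaccine strata, *P* = 0.722) and differed by -0.768 with anti-CTLA-4 (*P* = 0.222, same exact test), in a design whose smallest *P* is 0.0556. The Percoll library had the higher share in 7 of 8 pools, by 0.455 percentage points on average (4.81% ± 2.42 compared with 4.36% ± 2.31; exact sign-flip test, *P* = 0.0703, a comparison chosen after seeing the data).

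Set beside the stem-like cells of the same pools, the terminally exhausted cells had higher levels of most inhibitory receptor and cytotoxic genes tested. The values that follow are means of the 8 pools in CPM, scaled by edgeR. The gates were cut on UMIs of the same cells, so a gene that tracks *Havcr2* or *Tcf7* had to differ. The differences describe the gate and support nothing further. Of 5194 genes tested outside the gates, 175 (3.37%) were called, at an adjusted *P* below 0.05 and a log2 difference above 0.5 in edgeR's quasi-likelihood test with the pool as block. In terminally exhausted cells 133 (2.56%) were higher and 42 (0.809%) lower, and 1.21% of the genes tested had no overlap between the gates.

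Among the inhibitory receptors and ectoenzymes, 5 of 8 tested were called higher and 1 lower (median log2 difference, 0.79, compared with -0.01 over all genes). *Lag3* stood at 535 ± 155 CPM compared with 227.5 ± 61.6 (SD, n = 8 pools), with no overlap. *Entpd1*, which encodes CD39, an enzyme that breaks down extracellular ATP, stood at 87.5 ± 15.4 compared with 26.6 ± 21.1 CPM, also with no overlap. *Tigit* (log2 difference, 0.68), *Ctla4* (0.79), and *Cd244a* (1.35) were higher with overlapping pools, whereas *Cd160*, another receptor of the list, was lower (-1.10). Of 11 exhaustion factors, *Id2* (1.23), a repressor of E protein factors, and *Nr4a2* (0.53), a nuclear receptor that antigen signals induce, were called higher, and *Batf* (-0.92) was called lower. *Tox* differed by 0.33 ± 0.22 (SE) and was not called, with 225 ± 39.3 CPM compared with 172 ± 76.1.

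Of 13 cytotoxic genes, 9 were called higher (median log2 difference, 1.57), among them *Gzmc* (log2 difference, 4.51), *Gzma* (4.28), *Gzmb* (3.71), and *Prf1* (3.77), which encodes perforin, the protein that opens the target cell's membrane to granzymes. *Ifng*, the gene of interferon-γ, stood at 284 ± 103 CPM compared with 99.6 ± 38.1, with no overlap. *Gzmf* was also higher (4.03), but the granzyme genes *Gzmd*, *Gzme*, *Gzmf*, and *Gzmg* are near copies whose reads the counting could split. The chemokine genes *Ccl3* and *Ccl4*, whose products attract T cells and macrophages, were higher by 3.79 and 4.11, and the receptor gene *Cxcr6* by 1.93 (5 of 8 genes of their list called higher, median 1.87). Of 7 memory genes tested, *Slamf6* (-3.17), *Ccr7* (-2.09), and *Xcl1* (-1.47) were called lower and 0 higher. None of 7 costimulation, 10 glycolysis and hypoxia, 6 interferon-stimulated, and 6 dissociation stress genes was called. Outside the lists, *Dapl1* (-4.73) and *Emb* (-2.27) were among the genes that differed most downward and *Tmem273* (4.00) upward.

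Against the effector cells, 1023 of 8597 genes (11.9%) were called, 519 (6.04%) higher and 504 (5.86%) lower in terminally exhausted cells, and 4.14% had no overlap. These gates were cut on opposite sides of *Ly6c2*, and the effector gate also on *Ccl5*, so a gene that tracks either had to differ. Here too the differences, those of the interferon-stimulated list included, describe the gates and support nothing further. *Tox* stood at 209 ± 34.7 CPM compared with 47.9 ± 30.5, *Ikzf2*, the gene of the zinc finger factor Helios, at 191 ± 51.8 compared with 53.7 ± 40.1, and *Lag3* at 498.5 ± 143 compared with 106 ± 55.7, each with no overlap between the 8 pools of either gate. In all, 6 of 9 inhibitory receptors and ectoenzymes and 5 of 14 exhaustion factors were called higher, and *Eomes* (-0.69) was called lower. The costimulatory receptor genes *Tnfrsf9* (2.52), which encodes 4-1BB, and *Tnfrsf4* (2.32), which encodes OX40, were also higher.

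Of 10 memory genes tested, 6 were called lower and *Ccr7* was not called. *S1pr1*, the receptor that lets T cells leave tissue for blood, differed by -5.67 and *Klf2*, the factor that drives it, by -2.38. The interferon-stimulated list was lower in 9 of 10 genes, among them *Ifit3* (-3.73), *Ifit1* (-3.62), and *Isg15* (-1.31). Of the chemokine receptors, *Cxcr3* (-3.25) was lower and *Cxcr6* (1.31) higher. Of the cytotoxic genes, 5 of 13 were called higher. *Prf1* (1.62) and *Gzma* (1.38) were among them, *Gzmb* was not called, and *Tnf* (-0.96) was called lower.

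**Figure D2:**
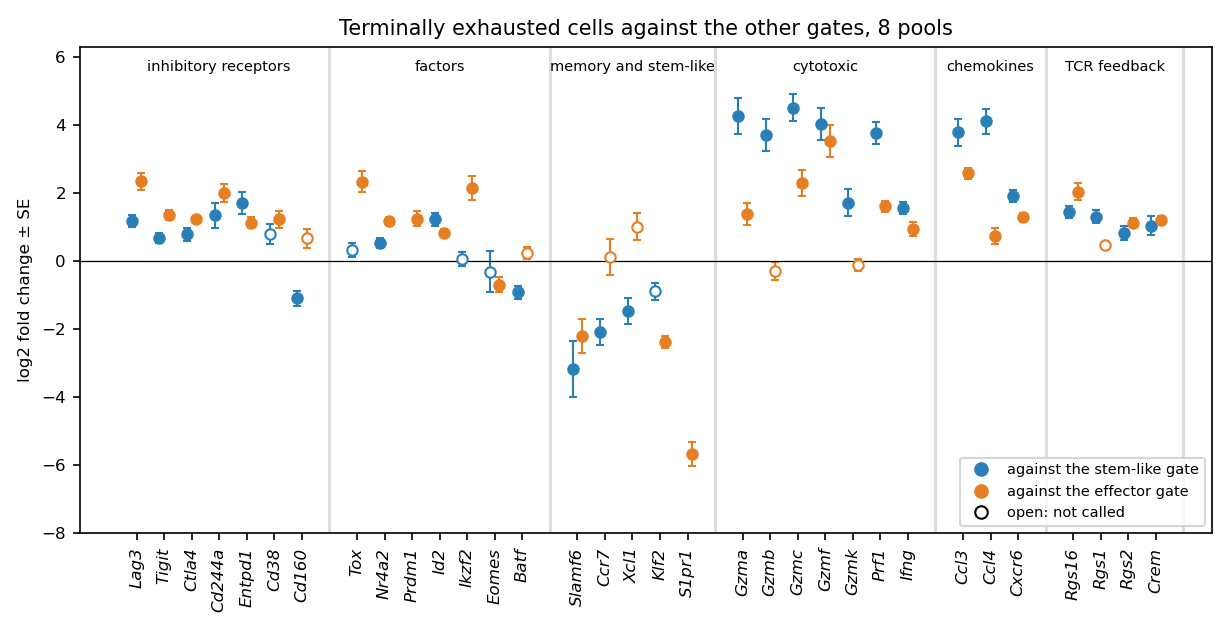
Log2 fold change ± SE (vertical axis) of genes grouped by role (horizontal axis) in terminally exhausted cells compared with the stem-like gate (blue) and with the effector gate (orange), over 8 pools, with open points for genes not called and no point where a gene was not tested. *Lag3* was called higher in both comparisons (1.17 and 2.36), and *Tox* compared with the effector gate (2.34) and not with the stem-like gate (0.33).

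Within the terminally exhausted cells, the genes called with PancVAX over the 8 pools included *Il21r*, the receptor for interleukin-21, a helper T cell cytokine that sustains CD8+ T cells. *Il21r* (ENSMUSG00000030745) lies on chromosome 7 (125603252–125634397, mm10). It stood at 201 CPM with isotype control, 166 with anti-CTLA-4, 203 with anti-PD-1, and 136 with both antibodies, and at 333 with PancVAX, 280.5 with PancVAX and anti-CTLA-4, 384 with PancVAX and anti-PD-1, and 310 with all 3 agents. The 4 pools with PancVAX lay above the 4 without. The means were 327 ± 43.7 and 177 ± 31.9 CPM (SD, n = 4), a log2 fold change of 0.90 ± 0.12 (SE; edgeR quasi-likelihood test, adjusted *P* = 0.00528 over 6115 genes). It was 1 of 3 genes called (0.0491% of those tested, 0.0327% higher and 0.0164% lower), while 598 genes had an unadjusted *P* below 0.05. The count changed with the setting. DESeq2 called 8 genes (5 higher) and gave no adjusted *P* for *Trbv20*, 18 (10 higher) were called under the limits of the study, and 2 of the 3 were among the called genes each time. Leaving out the pool with all 3 agents gave 20 genes (4 higher), the PancVAX and anti-CTLA-4 pool 12 (8 higher), the both-antibody pool 12 (2 higher), and the PancVAX pool 11 (7 higher). Without any 1 of the remaining 4 pools 2 to 9 were called.

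An *Il21r* UMI was found in 358 of the 546 cells, and the richest cell held 22 of 968 UMIs. After thinning, 40.0%–49.2% of the cells of a pool with PancVAX had one, compared with 21.7%–35.0% without. The fold change was 0.91 with cells thinned before gating (adjusted *P* = 0.110), 0.81 in whole tumor libraries (adjusted *P* = 0.487), and 0.95 in Percoll libraries (adjusted *P* = 0.298), so that its size was kept and its call was not. Leaving out any 1 pool kept the call, as did the limits of the study (0.79, adjusted *P* = 0.0300).

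The other genes called with PancVAX were variable segments of the T cell receptor beta chain. *Trbv16* stood at 22.7 ± 15.7 CPM with PancVAX and 177 ± 78.0 without (log2 fold change, -2.94, edgeR adjusted *P* = 0.00528; no overlap). Its call was lost after thinning (-0.42, adjusted *P* = 0.749), in whole tumor libraries (-2.82, adjusted *P* = 0.0693), and in Percoll libraries (-3.02, adjusted *P* = 0.518). *Trbv20* stood at 138 ± 130 compared with 27.8 ± 13.8 CPM (2.28, adjusted *P* = 0.0445). The *Trbv20* groups overlapped, since the PancVAX pool (40.8 CPM) lay below the anti-CTLA-4 pool (48.3 CPM), and the pool with all 3 agents alone reached 329 CPM. The *Trbv20* call was lost without that pool (1.60, adjusted *P* = 0.0549), without the both-antibody pool (1.49, adjusted *P* = 0.0538), without the anti-PD-1 pool (2.35, adjusted *P* = 0.0723), and without the isotype control pool (2.44, adjusted *P* = 0.0777). It was also lost under the limits of the study (2.15, adjusted *P* = 0.0661), over 16 libraries (2.39, adjusted *P* = 0.125), and in either preparation alone, and it was not tested after thinning, where it did not pass the count filter.

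The genes that name the state did not pass the test with PancVAX. Of 9 inhibitory receptors and ectoenzymes tested, 0 were called (median log2 fold change, 0.26, compared with 0.001 over all genes), and of 11 exhaustion factors 0 (median, 0.135), at unadjusted *P* values below 0.05 for *Lag3*, *Ctla4*, and *Cd38* among others. *Ctla4* stood at 265 ± 25.6 CPM with PancVAX and 195 ± 15.3 without, with no overlap (0.45, edgeR adjusted *P* = 0.219), and *Cd38* at 57.6 ± 6.64 and 39.3 ± 9.08, with no overlap (0.59, adjusted *P* = 0.338). Pools without overlap were found for 5.12% of all genes tested. *Tox* ranged from 167 to 223.5 CPM without PancVAX and from 197 to 288 with it, and *Lag3* from 367 to 569 and from 383.5 to 775. Both overlapped.

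Between the PancVAX pool and the isotype control pool, compared at 2 libraries each in a fit of all 16, 1 of 4588 genes was called (0.0218%). Each treatment is 1 pool here, its 2 libraries are its preparations, and the sources used here leave out whether both came from the same animals, so the test does not measure the spread between treated pools. The gene was *Ifitm1* (ENSMUSG00000025491; chromosome 7, 140967429–140969827), an interferon-induced membrane protein gene with near copies in its family. It stood at 194 CPM in the whole tumor and 219 in the Percoll library with PancVAX and at 2839 and 2956 with isotype control (log2 fold change, -3.83 ± 0.31, edgeR adjusted *P* = 1.21e-05). A UMI was found in 9 of 42 cells (21.4%) and 33 of 63 cells (52.4%), or in 7.14% and 41.7% after thinning. In the isotype control pool 1 cell held 376 of 1335 UMIs, and gating after thinning, which left few cells, took the fold change to -0.76 (adjusted *P* = 0.901), whereas under the limits of the study it was -4.45 (adjusted *P* = 0.00183). Over all 8 pools *Ifitm1* differed by -1.68 and was not called. This comparison could recover little: 4.5% of 200 genes changed 2-fold in simulated counts were called.

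A direct test of whether PancVAX acted alike in terminally exhausted and effector cells, chosen after seeing the data, called 55 of 8597 genes (0.64%; edgeR with the pool as block). The ratio of both gates within a pool had no overlap between vaccine groups for 5.41% of the genes. *Ikzf2* stood at 210 ± 65.2 CPM with PancVAX and 172 ± 31.8 without in terminally exhausted cells, and at 18.9 ± 4.12 and 88.6 ± 22.2 in effector cells (interaction on the log2 scale, 2.51 ± 0.21, adjusted *P* = 1.74e-05). *Tox* stood at 226 ± 39.7 and 193 ± 23.0 compared with 22.6 ± 6.75 and 73.2 ± 20.6 CPM (1.93, adjusted *P* = 0.00459). *Ikzf2* and *Tox* were the only 2 called of 14 exhaustion factors tested, and the other 12 were not called. The median interaction of that list was -0.289, compared with 0.00372 over all genes. Of 9 inhibitory receptors and ectoenzymes, *Lag3* (1.54), *Cd160* (1.98), *Cd244a* (1.81), and *Cd38* (1.53) were called with a higher PancVAX effect in terminally exhausted cells, as were *Tnfrsf4* (1.68), *Tnfrsf9* (1.39), and *Rgs16* (1.48). Within terminally exhausted cells alone none of these genes was called with PancVAX. In the scaling of this fit *Lag3* stood there at 354–551 CPM without PancVAX and 370–748 with it, which overlapped. In effector cells *Lag3* stood at 81.9–180 CPM without PancVAX and 36.1–79.9 with it. *Cd160* stood at 88.4 and 81.3 CPM with and without PancVAX in terminally exhausted cells and at 25.8 and 92.0 in effector cells, and *Cd244a* at 52.5 and 55.6 compared with 6.50 and 23.5. The *Lag3* call was lost without the PancVAX (adjusted *P* = 0.0662), anti-CTLA-4 (0.0527), or anti-PD-1 pool (0.0602). The *Cd38* call was lost without the PancVAX, PancVAX with anti-PD-1, both-antibody, or anti-CTLA-4 pool (adjusted *P* = 0.0511–0.0871), and the *Rgs16* call without the PancVAX, both-antibody, or anti-PD-1 pool (adjusted *P* = 0.0708–0.0826). After thinning, the calls of *Tox* (1.38, adjusted *P* = 0.404), *Cd160* (2.08, adjusted *P* = 0.198), and *Tnfrsf4* (1.00, adjusted *P* = 0.801) were lost. The effector gate without PancVAX held 95–208 cells per pool, and whether it then held the same kind of cell was not tested.

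*Ifitm1* had a lower PancVAX effect in terminally exhausted than in effector cells. In terminally exhausted cells it stood at 2735, 1841, 1124, and 1910 CPM in the pools with isotype control, anti-CTLA-4, anti-PD-1, and both antibodies, and at 197, 668, 1258, and 296 CPM when PancVAX was added to each in that order. In effector cells the same pools stood at 916, 791, 500.2, and 843 CPM without PancVAX and at 3287, 2850, 2901, and 3308 CPM with it. The terminally exhausted pools overlapped and the effector pools did not (interaction, -3.88 ± 0.40, edgeR adjusted *P* = 9.39e-05; -3.29 after thinning, still called). *Gzmb* (-1.64), *Gzmk* (-1.13), *Ifng* (-1.37), and *Lgals3* (-1.93), the gene of galectin-3, also had a lower PancVAX effect in terminally exhausted cells, where *Gzmb* stood at 710 ± 301 CPM with PancVAX and 984.5 ± 235 without, compared with 1501 ± 444 and 687 ± 206 CPM in effector cells. Among 13 cytotoxic genes, 4 were called with a lower PancVAX effect, *Gzma* (-1.93) included, and 8 were not called. The effect on *Gzmf* (2.95) was called higher. The *Gzmk* call was lost after thinning (-0.45, adjusted *P* = 0.887). For *Il21r*, terminally exhausted cells stood at 316 and 170 CPM and effector cells at 119 and 114 (0.86, adjusted *P* = 0.0171). That call was lost after thinning (0.67, adjusted *P* = 0.562) and when any 1 of 5 pools was left out, those with PancVAX alone, PancVAX and anti-PD-1, anti-PD-1, anti-CTLA-4, and both antibodies without PancVAX (0.70–0.90, adjusted *P* = 0.0527–0.0706).

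**Figure D3:**
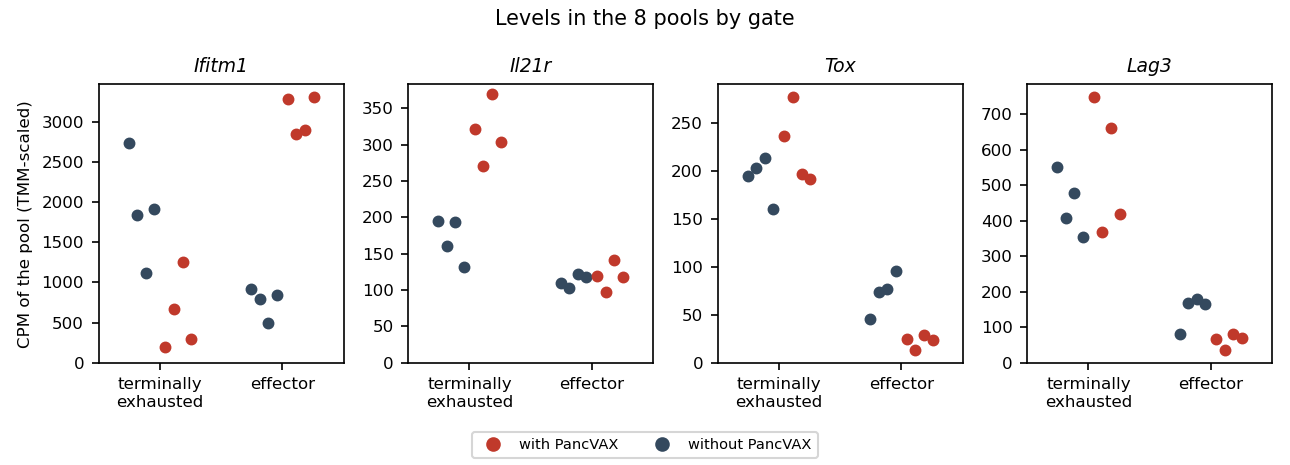
Level in CPM (linear vertical axes, 1 panel per gene) in terminally exhausted and effector CD8+ T cells of pools with and without PancVAX, 1 point per pool. The *Il21r* points of terminally exhausted cells with PancVAX lie above those without and overlap in effector cells, and the *Ifitm1* points of effector cells with PancVAX lie above those without.

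Anti-PD-1 was tested in the same fit, with PancVAX and anti-CTLA-4 as covariates. It called 22 of 6115 genes (0.36%), 20 of them higher (0.327%) and 2 lower (0.0327%), and 3.03% of the genes had no overlap. The largest were *H2-Ab1*, *H2-Aa*, and *H2-Eb1*, which encode MHC class II chains that present antigen, at log2 fold changes of 2.26, 2.12, and 2.05. *H2-Ab1* stood at 201 ± 45.0 CPM with anti-PD-1 and 39.2 ± 32.0 without, with no overlap (edgeR, adjusted *P* = 0.000509). *Nfkbia*, the gene of the NF-κB inhibitor IκBα, stood at 926 ± 341 and 420.5 ± 92.7 CPM (1.08, adjusted *P* = 0.00156), also with no overlap. Of 13 cytotoxic, 9 inhibitory, and 11 exhaustion genes 0 were called.

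All 20 genes called higher with anti-PD-1 were richer in the barcodes above 10000 UMIs, by a median of 8.13-fold, and these barcodes held 64.6%–97.6% of the UMIs of each gene. Of all UMIs of the gate they held 42.1% in whole tumor and 44.7% in Percoll libraries. How many of all genes tested were richer in them was not counted. Tumor markers stood at 236–704 CPM in the pools with anti-PD-1 and 108–318 in those without, and fibroblast markers at 54.2–247 and 36.0–135 CPM. Macrophage markers, which the gate's limit on *C1qb* holds down, stood at 75.8–106 CPM with anti-PD-1 and 109–144 without. When barcodes above 10000 UMIs were left out under the limits of the study, 0 genes were called, and 0 were called after thinning, in whole tumor libraries, and in a fit of 16 libraries, compared with 41 in Percoll libraries alone. Under those limits 13 of the 22 were tested and 11 of them kept their direction. After thinning 4 were tested, and all 4 kept it. In whole tumor libraries 21 of the 22 kept their direction, as did all 22 over 16 libraries. The part of the deep barcodes in the calls was not tested.

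Anti-CTLA-4 called 25 genes (0.409%), 22 of them higher (0.36%), and *Lag3* was among the 3 called lower (0.0491%). The 22 were led by *Ccnd1* (1.76), *Prss22* (1.54), *Nfib* (1.46), *Wfdc2* (1.42), and *Lgals7* (1.42), and the barcodes above 10000 UMIs held 71.8%–100.0% of the UMIs of each (median, 93.0%). Of all UMIs of the gate these barcodes held 42.1% in whole tumor and 44.7% in Percoll libraries. Tumor markers stood at 128–704 CPM (median, 446) in the pools with anti-CTLA-4 and 108–330 (median, 233) in those without, and fibroblast markers at 67.3–247 (median, 165) and 36.0–137 CPM (median, 69.0). The part of these cells in the calls was not tested. Under the limits of the study 10 of the 25 were tested and 6 of them kept their direction, while 1 gene was called and 0 higher, and 0 were called after thinning, in whole tumor libraries, and in Percoll libraries. After thinning 3 of the 25 were tested, and all 3 kept their direction. So did all 24 tested in whole tumor libraries and all 23 tested in Percoll libraries. *Lag3* stood at 422, 367, 383.5, and 428 CPM in the pools with anti-CTLA-4 and at 569, 501, 775, and 687 CPM in the pools without it. The groups did not overlap (400.2 ± 29.6 compared with 633 ± 122 CPM; log2 fold change, -0.63 ± 0.11, edgeR adjusted *P* = 0.0185). Of all genes tested, 3.91% had no overlap. *Lag3* was richer in the shallower barcodes, as the receptor list was, and under the limits of the study it differed by -0.54 (adjusted *P* = 0.384), after thinning by -0.48 (adjusted *P* = 0.834), and without the PancVAX pool by -0.57 (adjusted *P* = 0.0797). Leaving out the pool with all 3 agents, with PancVAX and anti-PD-1, or with anti-CTLA-4 also ended the call.

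The chemokine gene *Ccl1*, whose product attracts cells bearing CCR8, was called lower with either antibody. It stood at 222 CPM with isotype control, 25.0 with anti-CTLA-4, 68.5 with anti-PD-1, and 17.6 with both, and at 104, 39.1, 8.73, and 4.62 CPM with PancVAX in the same order. Both antibody contrasts overlapped. The log2 fold change was -2.21 with anti-CTLA-4 (edgeR, adjusted *P* = 0.00596) and -1.84 with anti-PD-1 (adjusted *P* = 0.0225), and both calls were lost without the isotype control pool (-2.16, adjusted *P* = 0.0582, and -1.73, adjusted *P* = 0.230), over 16 libraries, and in either preparation alone. That with anti-CTLA-4 was lost also without the anti-CTLA-4 pool (-1.50, adjusted *P* = 0.204) or the anti-PD-1 pool (-1.99, adjusted *P* = 0.0574), and that with anti-PD-1 without the PancVAX pool (-1.75, adjusted *P* = 0.0988) or the anti-PD-1 pool (-2.19, adjusted *P* = 0.0718). A *Ccl1* UMI was found in 35 of the 546 cells, and 1 cell held 77 of 241 UMIs (32.0%). Under the limits of the study the call with anti-CTLA-4 held and that with anti-PD-1 did not. *Ccl3* was lower with anti-CTLA-4 (446 ± 63.5 compared with 791 ± 226 CPM; -0.79, adjusted *P* = 0.0055), with overlapping pools, and was not called under those limits (-0.89, adjusted *P* = 0.386).

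**Figure D4:**
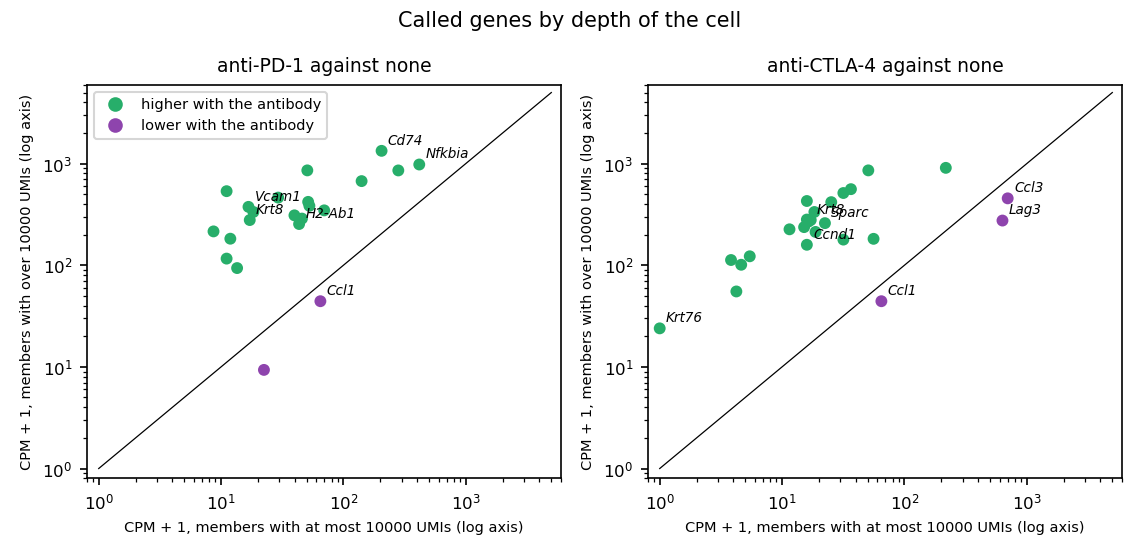
Level in CPM + 1 of each gene called with anti-PD-1 (left) or anti-CTLA-4 (right), in barcodes of the gate above 10000 UMIs (vertical axis, log) and in the others (horizontal axis, log), 1 point per gene, with the line of equal level. The 20 genes called higher with anti-PD-1 and the 22 with anti-CTLA-4 lie above the line, and the 2 and 3 genes called lower, *Ccl1* in both panels, lie below it.

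Adding both antibodies to PancVAX, again at 2 libraries against 2, called 3 of 4588 genes (0.0654%). This too compares 1 pool with 1 other, and the SDs are those of 2 preparations. The genes were *Sdc4* (338 ± 64.2 compared with 29.3 ± 17.5 CPM; log2 fold change, 3.34, edgeR adjusted *P* = 0.0413), *Nfkbia* (1523 ± 279 compared with 309 ± 115; 2.38, adjusted *P* = 0.0395), and *Ifrd1* (914 ± 108 compared with 186 ± 60.5; 2.29, adjusted *P* = 0.0395). The barcodes above 10000 UMIs held 92.0%, 64.6%, and 67.0% of the UMIs of these genes in the gate. Of all its UMIs they held 42.1% in whole tumor and 44.7% in Percoll libraries. Tumor markers stood at 704 CPM in the pool with all 3 agents and 108 in the PancVAX pool, and fibroblast markers at 194 and 36.0 CPM, and their part in the calls was not tested. Without the whole tumor library of either pool 0 genes were called, without the Percoll library of the PancVAX pool 1, which was none of the 3, and without that of the pool with all 3 agents 4, with *Sdc4* lost. With no preparation covariate 0 were called, and after thinning 1, which was none of the 3. Under the limits of the study 0 genes were called, and in simulated counts 1.5% of genes changed 2-fold were recovered. The exhaustion and receptor lists had 0 calls.

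In tests of whether an antibody acted differently with and without PancVAX, anti-PD-1 gave 0 genes (315 at an unadjusted *P* below 0.05) and anti-CTLA-4 gave 1, *Gzmf* (chromosome 14, 56205263–56211407). It stood at 535 CPM with isotype control, 481 with anti-CTLA-4, 781 with anti-PD-1, and 928 with both, and at 854, 185, 927, and 120 CPM when PancVAX was added (interaction, -2.66 ± 0.35, edgeR adjusted *P* = 0.0145). The 2 pools that received PancVAX with anti-CTLA-4 were thus the lowest of the 8. Its near copies were part of the gate.

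How many genes of these cells were called between the preparations, and in which direction, changed with the setting. Of 4588 genes, 11 were called between Percoll and whole tumor libraries with the pool as block (0.24%), a comparison chosen after seeing the data, and 10 were higher in Percoll. Libraries of the preparations did not overlap for 0.131% of the genes. *Cd69*, an early activation and residency receptor, stood at 169–344 CPM in the 8 Percoll libraries and 14.9–131 in the 8 whole tumor libraries, with no overlap (log2 difference, 2.33, edgeR adjusted *P* = 2.31e-05). *Rgs1*, a regulator of chemokine receptor signaling, stood at 828–1604 and 280–611 CPM, also with no overlap (1.41, adjusted *P* = 2.31e-05). *Gadd45b* (2.12), *Ppp1r15a* (1.11), *Rgs2* (0.83), *Bhlhe40* (0.61), and *Tnfaip3* (0.55) were higher too, *S100a9*, a neutrophil gene, was higher by 4.23, and *mt-Nd1* was lower (-0.63). *Lag3*, *Tox*, and *Il21r* were not called. Under the limits of the study 76 genes were called, 46 of them higher in Percoll, and 8 of the 11 were among them. DESeq2 called 10, 5 of them higher, and of the 11 it kept *Rgs1*, *Bhlhe40*, and *mt-Nd1* and gave no adjusted *P* for the other 8. After thinning 8 were called, 3 of them higher, 6 of the 11 were tested, and *Rgs1* and *mt-Nd1* kept their calls, while *Cd69*, *Gadd45b*, *Ppp1r15a*, and *S100a9* did not pass the count filter. Leaving out a pool gave 5 to 18.

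T cell receptors were read in the Percoll libraries, and they show how the gated cells are related. Within a library, cells were counted as a clone when they shared the TRB V gene and the bases of CDR3, the stretch where V, D, and J segments were joined and which is all but unique to the descendants of 1 T cell. Of 312 gated cells in these libraries, 292 had a TRB chain, in 186 clones. The CDR3 sequences of the 5 clones with the highest number of gated cells, ties ordered by clone size, are shown as examples of receptors that several gated cells share, and they hold 32 of the 292 cells. Lower case marks the run of bases at either end that match the most common base at their position, where at least 70% of the sequences with that V or J gene have it, and capitals mark the bases between.
TRBV20 and TRBJ1-1, PancVAX with both antibodies: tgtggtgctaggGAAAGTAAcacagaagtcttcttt
TRBV5 and TRBJ1-1, both antibodies: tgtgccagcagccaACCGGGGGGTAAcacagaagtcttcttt
TRBV26 and TRBJ1-1, anti-PD-1: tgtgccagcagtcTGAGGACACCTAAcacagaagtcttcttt
TRBV16 and TRBJ2-7, both antibodies: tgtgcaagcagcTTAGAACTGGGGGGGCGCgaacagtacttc
TRBV26 and TRBJ1-1, PancVAX with anti-PD-1: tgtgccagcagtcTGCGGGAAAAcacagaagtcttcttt

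These clones held 10, 6, 6, 5, and 5 gated cells among 113, 80, 20, 71, and 45 cells with a TRB chain. The TRBV20 clone is in the pool where *Trbv20* reached 329 CPM, and it has the fewest bases in capitals of the 5, at 8. The TRBV16 clone is in the pool with the highest *Trbv16* level (258 CPM).

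Most terminally exhausted cells belonged to expanded clones. In all, 249 of 292 (85.3%) lay in a clone of 2 or more cells, and the median gated cell lay in a clone of 10. By pool the share was 83.3% with isotype control, 87.8% with anti-CTLA-4, 89.3% with anti-PD-1, 93.1% with both, 52.0% with PancVAX, 81.3% with PancVAX and anti-CTLA-4, 89.3% with PancVAX and anti-PD-1, and 86.1% with all 3 agents. The PancVAX pool stood apart from the other 7. The mean was 82.8% ± 13.0, compared with 48.7% ± 14.6 for effector cells of the same libraries, and was higher in 7 of 8 (difference, 34.0 percentage points; exact sign-flip test, *P* = 0.0156; adjusted over 3 clone tests, 0.0469). Compared with stem-like cells the means were 82.8% and 81.8% ± 15.8 (exact sign-flip test, *P* = 0.859), with 4–20 stem-like cells per library.

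**Figure D5:**
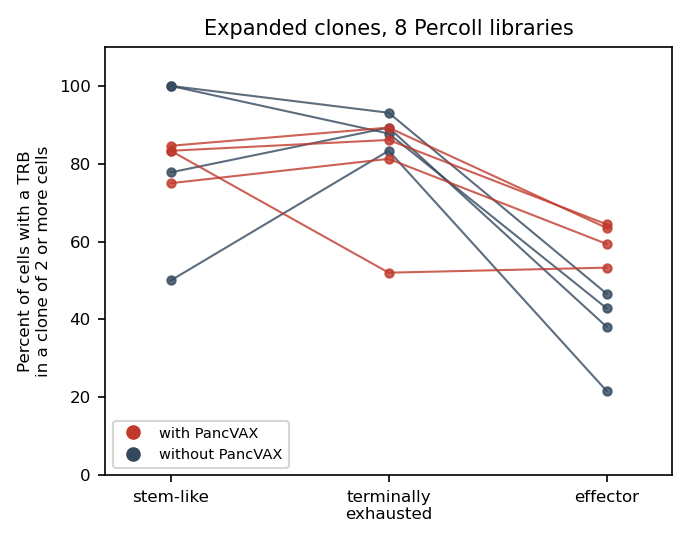
Share of cells with a TRB chain that lie in a clone of 2 or more cells (percent, vertical axis) in terminally exhausted, stem-like, and effector CD8+ T cells of each Percoll library, with lines joining the cells of 1 library. The terminally exhausted point lies above the effector point in 7 of 8 libraries, the exception being PancVAX at 52.0%.

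The clones of gated cells reached into other CD8+ states. Of the 186, 109 (58.6%) also held a CD8+ T cell with a *Mki67* UMI, the mark of cycling cells, 52 (28.0%) held a cell with 3 or more UMIs of *Gzmd*, *Gzme*, and *Gzmg*, 38 (20.4%) an effector cell, and 22 (11.8%) a stem-like cell, and 56 (30.1%) held another gated cell. The most common mate, in 121 clones (65.1%), was a CD8+ T cell with a *Pdcd1* UMI that was in none of these states. That class takes in cells left out of the gate only for want of a *Havcr2* UMI. Read the other way, 142 of 272 cells of the granzyme state (52.2%), 29 of 77 stem-like cells (37.7%), 443 of 1243 *Mki67* cells (35.6%), and 87 of 1990 effector cells (4.37%) were in a clone with a gated cell. For effector cells this share was 0.0%–2.31% in the pools with PancVAX and 2.70%–26.7% in those without, but it depends on how many gated cells a library holds and was not tested.

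How often a pair of gated cells shared a clone did not separate the vaccine groups. The chance was 1.00%, 4.17%, 4.50%, and 8.25% in the pools with PancVAX and 3.26%, 2.64%, 2.86%, and 3.02% in those without (means, 4.48% ± 2.97 and 2.94% ± 0.264; exact permutation test, *P* = 0.457; adjusted over 3 clone tests, 0.686). The groups overlapped through the PancVAX pool, and without that pool the means were 5.64% and 2.94% (exact permutation *P* = 0.0286). Without the pool with all 3 agents they were 3.22% and 2.94% (exact permutation *P* = 0.857). Leaving out any 1 of the remaining pools gave exact permutation *P* values of 0.457–0.571.

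V gene use was uneven. TRBV5 was used by 19.5% of gated cells, 16.9% of stem-like, 13.8% of other CD8+ T cells, and 6.33% of effector cells, and TRBV26 by 11.3% of gated and 3.37% of effector cells. TRBV20 was used by 14 of 105 gated cells with PancVAX (13.3%) and 7 of 187 without (3.74%), of which 10 came from 1 clone, and TRBV16 by 3 of 105 (2.86%) and 21 of 187 (11.2%). Of those 21, 15 were in the both-antibody pool, without which TRBV16 was used by 6 of 129 cells (4.65%), and the pools overlapped (0.0%–5.56% with PancVAX and 0.0%–25.9% without). Without the pool with all 3 agents TRBV20 was used by 4 of 69 cells with PancVAX (5.80%) and TRBV16 by 1 (1.45%), and without the anti-CTLA-4 pool TRBV20 was used by 3 of 138 cells not given PancVAX (2.17%). Of 183 distinct TRB sequences of gated cells, 2 were found in gated cells of 2 or more pools, and 8 in any cell of 2 or more pools. Some receptors that differ in DNA encode the same protein, and 6 such sequences are shown because they let receptors of different clones and pools be compared. Capitals mark the bases that differ within a set.
TRBV5, anti-CTLA-4, first clone: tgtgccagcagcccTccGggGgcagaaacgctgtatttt
TRBV5, anti-CTLA-4, second clone: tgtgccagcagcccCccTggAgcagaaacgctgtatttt
TRBV5, PancVAX with anti-PD-1: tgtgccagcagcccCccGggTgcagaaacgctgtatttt
TRBV16, both antibodies: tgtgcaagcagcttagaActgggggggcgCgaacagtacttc
TRBV16, isotype control: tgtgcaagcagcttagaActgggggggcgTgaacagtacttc
TRBV16, PancVAX with both antibodies: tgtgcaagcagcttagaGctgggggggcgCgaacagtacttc

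The first TRBV5 sequence was carried by 4 gated cells of a clone of 91, the second by 4 of a clone of 32, and the third by 1 of a clone of 2. The TRBV16 sequences were carried by 5, 1, and 2 gated cells of clones of 71, 12, and 13. Read from the first base, every capital is the last base of a codon. In cells outside the gate the TRBV16 sequence of the both-antibody pool was found too, and over all cells it occurred in 4 pools. The antigens of these receptors were not analysed here.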

How the data were processed

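The authors aligned reads and counted UMIs with Cell Ranger 4.0.0 against mm10, by the submitters' processing notes, and the deposited matrix holds raw counts per gene and barcode. The deposited receptor contigs, with their UMI counts, cover the 8 Percoll libraries. Barcodes were assigned to libraries by their suffix and the library numbers in the labels. No doublet caller or ambient RNA correction was run.

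Counts of the gated cells were summed by pool (n = 8) or library (n = 16) and tested with edgeR 4.0.16 in R 4.3.3 (quasi-likelihood test, TMM, filterByExpr, Benjamini-Hochberg adjustment over all genes tested). A gene was called at an adjusted *P* below 0.05 and an absolute log2 fold change above 0.5, with gate genes left out. Shares were compared by exact two-sided permutation tests (70 splits, 36 within vaccine strata, 256 sign flips) with scipy 1.17.1 in Python 3.11.15. Intervals are exact binomial (95%) and cover counting error only. The study tested cells as replicates, which was not done here. In simulated counts with 200 genes changed 2-fold, the 8-pool fit recovered 58.5% for PancVAX, 63.0% for anti-PD-1, and 60.5% for anti-CTLA-4.

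The members, gene lists, and gates were chosen with earlier results of these data known, among them *Il21r* with PancVAX, so none of these is independent support. Named genes were all inhibitory receptors and exhaustion factors, members of the other lists that were called, and the called genes of largest fold change (at most 5 in each direction) with a mean of at least 20 CPM, without receptor segments. Some genes that this rule names are not reported here. *Trbv16* and *Trbv20* were named after their values were seen. Other settings tried were DESeq2 1.42.0, all genes without a count filter, the limits of the study (200–3000 genes, 1000–10000 UMIs, no hemoglobin), thinning, a mitochondrial limit of 5%, each preparation alone, 16 libraries, other clone definitions, and leaving out each pool or library. The comparison of preparations, the interaction of gate and PancVAX, and the other denominators were added after seeing the data. The lists of costimulation, cytokine receptor, TCR feedback, residency, glycolysis and hypoxia, and dissociation stress genes had 0 calls in the 8-pool fits of PancVAX and the antibodies except *Il21r* with PancVAX and *Nfkbia* with anti-PD-1. Between gates, genes of each of these lists were called against effector cells. Genes of the cytokine receptor, TCR feedback, and residency lists were also called against stem-like cells.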

Additional observations from a re-analysis of the deposited data

Results flagged for a closer look

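Of 259 groups of 4 or 8 pools compared for the named results, 35 (13.5%) held a pool that stood far from the others by Dixon's criterion. Chance flags about 1 in 20 only where values are independent and normally distributed. Here the same cells enter more than 1 fit and some levels lie at the floor, so the share cannot be set against that rate. The values are those of the pool that stood apart, followed by its nearest neighbor, in CPM except for the clone share. The PancVAX pool had 52.0% of its terminally exhausted cells in expanded clones, beside 81.3% in the next pool. In the terminally exhausted cells it was also high for *Prf1* (551 and 333 in the fit with stem-like cells, 512 and 305 in the fit with effector cells), *Cxcr6* (832 and 611, and 773 and 566), *Ly6a* (409 and 199), and *Il10ra* (139 and 83.8). The same pool's effector cells stood apart for *Gzma* (1949 and 1031), *Cxcr6* (323 and 222), *Ifi27l2a* (834 and 513), and *Nr4a2* (172 and 278), and its stem-like cells for *Prf1* (58.8 and 26.6).

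The terminally exhausted cells of the isotype control pool were high for *Gzma* (6595 and 3461 in the fit with stem-like cells, 6192 and 3205 in that with effector cells) and *Ccl1* (229 and 108, and 215 and 100.0), and its effector cells for *Ccl1* (59.6 and 8.62) and *Ccdc184* (7.45 and 2.23). Its stem-like cells, 8 in all, were high for *Cd160* (511 and 288). The terminally exhausted cells of PancVAX with anti-PD-1 were high for *Tnfsf8* (11.3 and 4.36), *Emb* (111 and 63.5), *Gm156* (337 and 211), and *Itgae* (16.8 and 7.92). Those of PancVAX with anti-CTLA-4 were high for *Ccdc184* (58.2 and 25.9) and low for *Id3* (3.55 and 106), those with all 3 agents high for *Penk* (195 and 65.0), and those with both antibodies high for *Id3* (610.1 and 236). The anti-CTLA-4 pool was high for *Trbv20* among pools without PancVAX (48.3 and 22.8).

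In terminally exhausted cells, 1 pool carried the counts of a gene that was at 0 in the other 7, namely *Nsg2* with anti-PD-1 (1.15) and *Postn* with both antibodies (1.13). The gated cells of these pools held 863998 and 906889 UMIs in all, so each of these levels is about 1 UMI, at the floor. Stem-like cells of PancVAX with anti-CTLA-4 were high for *Ccl4* (270.2 and 118) and *Itgb7* (342 and 118), and those of PancVAX with anti-PD-1 for *Tigit* (378 and 256). Effector cells of PancVAX with anti-PD-1 were high for *Penk* (10.7 and 3.93) and *Crem* (162 and 95.8).

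An effect that differed between groups by a test of the difference was found for *Gzmf*, with anti-CTLA-4 by vaccine state (-2.66 on the log2 scale). For the effect of PancVAX by gate, the difference between terminally exhausted and effector cells was positive for *Klra5* (4.65), *Gm156* (3.68), *Ccr7* (3.21), *Gzmf* (2.95), *Ikzf2* (2.51), *Xcl1* (2.49), *Cd160* (1.98), *Tox* (1.93), *Cd244a* (1.81), *Tnfrsf4* (1.68), *Lag3* (1.54), *Cd38* (1.53), *Rgs16* (1.48), *Tnfrsf9* (1.39), and *Il21r* (0.86). It was negative for *Ifitm1* (-3.88), *Gzma* (-1.93), *Lgals3* (-1.93), *Parp10* (-1.64), *Gzmb* (-1.64), *Ifng* (-1.37), *Il7r* (-1.28), *Il18r1* (-1.16), *Gzmk* (-1.13), and *Dusp5* (-0.63). *Klra5*, *Gzmf*, and *Ifitm1* have near copies that the counting could split.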

How the results depend on the processing

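The number of genes called depended on the cell limits and on depth. With PancVAX it was 3, and 8 by DESeq2, 107 with no filter on low counts, 18 under the limits of the study, 1 after thinning to 2000 UMIs, 0 in whole tumor and 1 in Percoll libraries, and 2 to 20 with a pool left out. With anti-PD-1 it was 22, and 111 with no filter, 0 under the limits of the study, 0 thinned, 0 in whole tumor libraries, 41 in Percoll libraries, 0 over 16 libraries, and 13 to 38 with a pool left out. With anti-CTLA-4 it was 25, and 151 with no filter, 1 under the limits of the study, 0 thinned, 0 in whole tumor libraries, 0 in Percoll libraries, 1 over 16 libraries, and 8 to 54 with a pool left out. For both antibodies added to PancVAX it was 3, and 12 by DESeq2, 143 with no filter, 0 under the limits of the study, 1 thinned, 0 with no preparation covariate, 49 with the 4 libraries alone, and 0 to 4 with a library left out. For PancVAX against isotype control it was 1, and 3 by DESeq2, 33 with no filter, 0 thinned, 14 with the 4 libraries alone, and 1 to 2 with a library left out. Fewer cells and genes enter the thinned and single-preparation fits, and beyond that the cause was not tested.

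Against stem-like cells the number was 175, and 419 with no filter, 33 thinned, 33 in whole tumor and 73 in Percoll libraries, and 113 to 178 with a pool left out. Against effector cells it was 1023, and 302 thinned, 544 in whole tumor libraries, and 856 to 1135 with a pool left out. Between preparations it was 11, and 74 with no filter, 76 under the limits of the study, and 5 to 18 with a pool left out. For the interaction of gate and PancVAX it was 55, and 182 with no filter, 24 thinned, and 35 to 86 with a pool left out.

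The difference in share with PancVAX was -4.16 percentage points, -0.273 after thinning to 1000 UMIs (exact permutation *P* = 0.0857), and -4.46 to -3.59 with a pool left out. That with anti-PD-1 was 0.448, turned to -0.0301 at 1000 UMIs, and ranged from -0.148 to 1.04 with a pool left out, and that with anti-CTLA-4 ranged from -1.23 to -0.308, both averaged within the vaccine strata. The expanded share against stem-like cells differed by 1.01, by -0.779 with clones set by TRB and TRA, by 8.82 with expanded set from 5 cells, by 5.68 under the limits of the study, and by -3.61 to 5.63 with a pool left out, and against effector cells by 30.1 to 39.1. The pair chance differed by 1.53 percentage points and by 0.277 to 2.69 with a pool left out. *Lgals7* with anti-CTLA-4 turned to -0.0029 under the limits of the study, and *Fasl* against stem-like cells to -0.29 when thinned.

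Of 4108 values of 320 named single-gene results under the alternatives, 3533 kept their direction and their side of the threshold, 191 changed sign below it in both settings, 2 called values reversed, 353 no longer passed it, 183 of them with a pool or library left out, and 29 passed it newly. The 3533 include values of genes that were called in neither setting, so they do not give the share of calls that were kept. A further 41 values for which DESeq2 gave no adjusted *P* are not counted. The labels give no replicate numbers. The gates were compared with the pool as block, and the 16-library fits held the preparation as a covariate. The gate held 17–61 cells per library, which limits what single libraries can show.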

Other observations

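Other gene groups also set the terminally exhausted cells beside the effector cells of the same pools. *Penk*, the gene of proenkephalin, an opioid peptide precursor, stood at 53.9 ± 59.8 CPM compared with 3.15 ± 3.36 (SD, n = 8 pools), *Nrn1*, the gene of neuritin, at 60.0 ± 25.2 compared with 5.54 ± 3.83, and *Tmprss6*, a membrane serine protease gene, at 35.7 ± 11.6 compared with 3.52 ± 2.37, each with no overlap. Of the cytokine receptors, *Il2rb*, a chain of the interleukin-2 and interleukin-15 receptors, stood at 858 ± 100.1 compared with 389 ± 54.2 CPM, also with no overlap. Over all genes tested in this comparison, 4.14% had no overlap. *Penk* was far higher in the pool with all 3 agents, at 195 CPM, than in the next pool, at 65.0. Among genes that antigen receptor signals induce or restrain, *Rgs16* (log2 difference, 2.05), *Crem* (1.20), *Rgs2* (1.14), and *Cblb* (1.04), a ubiquitin ligase gene that restrains T cell activation, were higher, and *Nfkbid* (-1.55), *Dusp2* (-1.02), and *Nfkbia* (-0.88) were lower.

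Of 10 glycolysis and hypoxia genes, *Tpi1* (0.66), *Pgk1* (0.62), and *Ldha* (0.51), enzymes of glycolysis, were called higher than in effector cells. Over all genes tested in this comparison, 6.04% were called higher and 5.86% lower. Of the residency genes, *Itgb7* (-2.84), *Itgae* (-1.80), which encodes CD103, and *Cd69* (-1.18) were called lower, and the heat shock gene *Hspa1a* (-1.27) was lower too. These values describe the gates, which were cut on UMIs of the same cells.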
